A study of Homo sapiens with 45 samples.

Results

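The 50 genes described here encode the secreted WNT proteins, the receptors that bind them, the proteins that hold them off and a few genes used to read the pathway's activity. They were chosen as a list of symbols. The list holds 19 WNT ligands, 10 Frizzled receptors, 5 co-receptors (LRP5, LRP6, ROR1, ROR2, RYK), 11 secreted antagonists and 5 readouts or LGR receptors (AXIN2, LEF1, TCF7, LGR4, LGR5). They are 50 of the 41582 genes to which transcripts of the tables could be assigned, and the estimated counts and TPM (a level scaled to transcript length and library size) of all transcripts of a symbol were summed. Poly(A) RNA was sequenced from 7 Ewing sarcoma lines (TC71, SKES1, RDES, MHHES1, A673, EW24 and EW3) and 6 osteosarcoma lines (G292, HOS-MNNG, KHOS, MG63, SAOS2, U2OS), with 3 libraries each. Ewing sarcoma and osteosarcoma both arise mainly in bone in young people, and in the first an EWSR1 fusion gene encodes the driving transcription factor. HOS-MNNG and KHOS both derive from the HOS line and are not independent tumours. A673 cells carrying sh908, a short hairpin against the potassium channel gene KCNN1 that doxycycline switches on, were sequenced without and with doxycycline (3 libraries each), and both groups carry the hairpin. The labels name no time or dose of doxycycline, and they do not say whether the 3 libraries of a group came from separate cultures. P-values between the tumour types measure the spread between 13 lines. Those between A673 groups measure the spread between libraries, which may be technical.

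WNT proteins are lipid-modified signals that bind a Frizzled receptor together with a co-receptor. With LRP5 or LRP6 as partner, binding stops the destruction of beta-catenin, which then enters the nucleus and acts with TCF and LEF factors; with ROR1, ROR2 or RYK, WNT5-type ligands signal without beta-catenin, to the cytoskeleton and cell polarity. Dickkopf proteins (DKK) block LRP5 and LRP6, whereas secreted Frizzled-related proteins (SFRP, FRZB) and WIF1 bind the ligands themselves. In bone the beta-catenin branch drives osteoblast formation, and its antagonists DKK1 and SOST restrain it.

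Libraries held 15974173 to 51413254 estimated counts. The 45 pairs of libraries of 1 group had Pearson correlations of 0.956 to 0.992 over genes, and no pair was identical. NKX2-2, PAX7, STEAP1 and CD99 were at 1 TPM or more in 7 of 7 Ewing lines and NR0B1 in 5; CD99 and STEAP1 were also present in 6 of 6 osteosarcoma lines, NKX2-2 and PAX7 in 2 and NR0B1 in 1. Of 7 osteoblast lineage markers, osteosarcoma lines had COL1A1 in 6 of 6, RUNX2 in 5, ALPL and SPP1 in 4, SP7 and BGLAP in 1 and IBSP in none. Ewing lines had COL1A1 and ALPL in 7 of 7, RUNX2 in 4, BGLAP in 3 and the other 3 in none. Summed markers of blood, endothelium and epithelium reached at most 2.57, 1.41 and 2.28 TPM in Ewing lines and 10.01, 6.83 and 27.7 TPM in osteosarcoma lines; their part in the results below was not tested. KCNN1 stood at 37.8, 35.3 and 18 TPM in the libraries labelled without doxycycline and at 10.2, 13.7 and 7.75 TPM in those with it. In bulk RNA, fewer cells with a transcript and less of it per cell cannot be told apart.

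With 1 TPM in a line's mean as the threshold for presence, 39 of the 50 genes were present in at least 1 of the 13 lines and 11 in none. WNT2, WNT4, WNT7A, WNT8A, WNT8B, WNT9B and WNT16 among the ligands, the receptor FZD10 and the antagonists DKK4, SFRP5 and SOST stayed under 1 TPM in every line. The 11 genes present in all 13 lines were WNT3, WNT5A, FZD1, FZD2, FZD6, FZD7, LRP5, LRP6, ROR1, RYK and LGR4. They include 4 Frizzled receptors and 4 co-receptors, but no secreted antagonist. Ewing lines had 35 of the genes in at least 1 line and 16 in all 7; osteosarcoma lines had 37 in at least 1 and 13 in all 6.

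**Figure D1:**
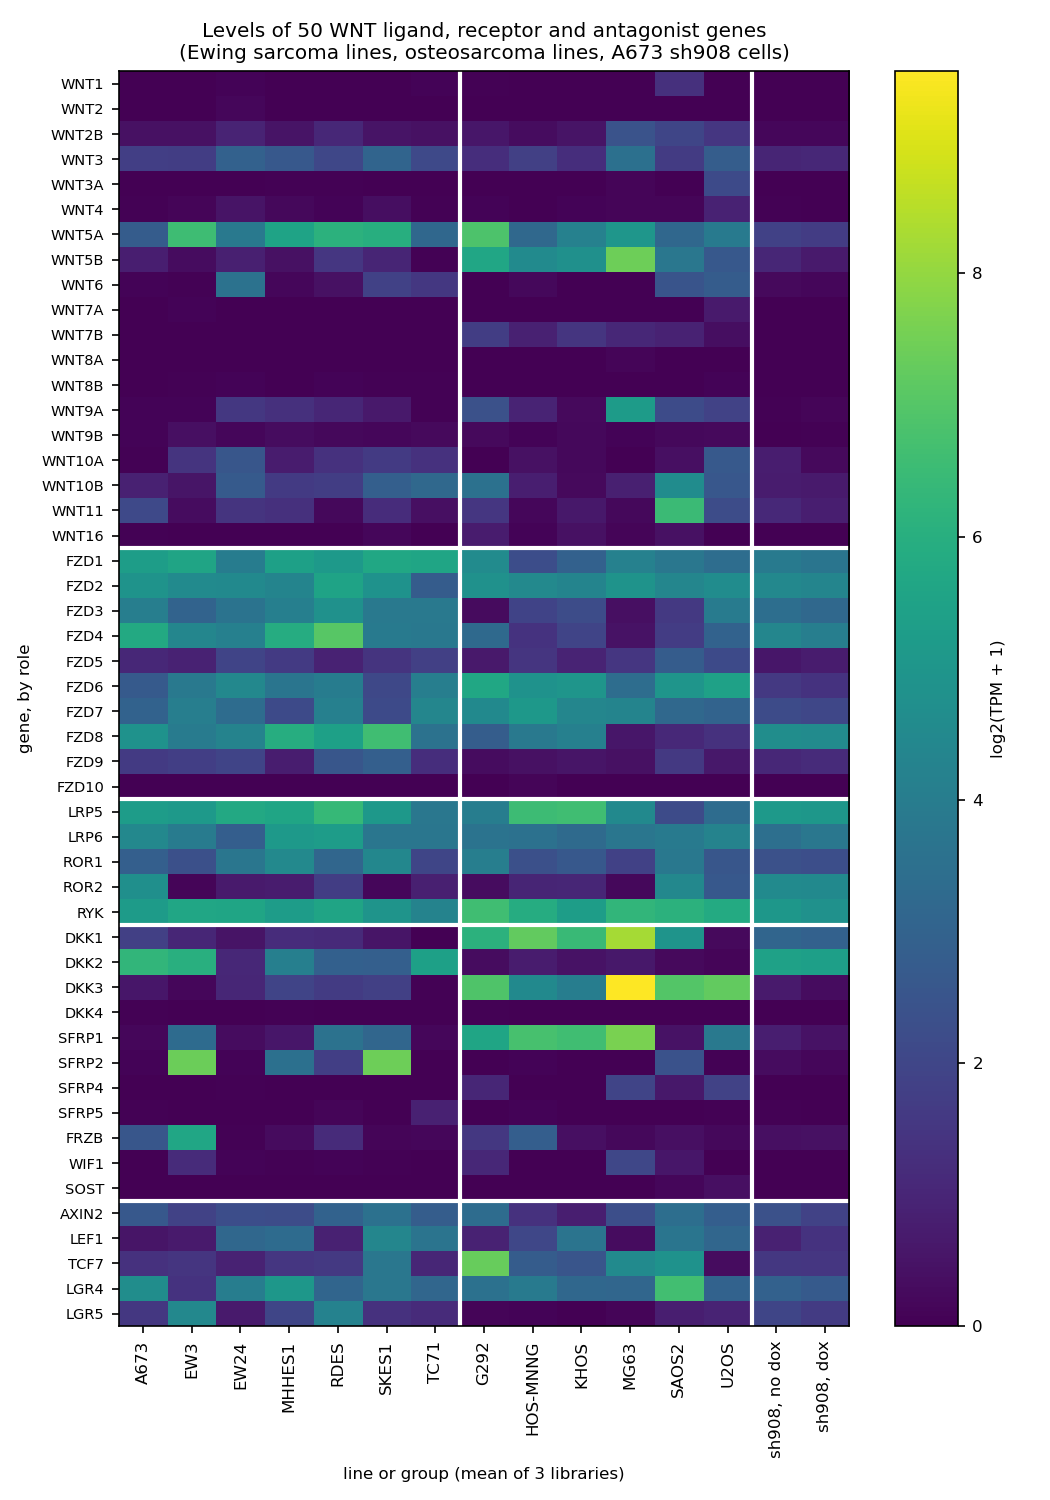
Mean level of the 50 genes (rows, grouped by role, white lines between roles and between kinds of cells) in each line and in the A673 sh908 groups (columns), as log2(TPM + 1) of the mean of 3 libraries. The receptors FZD1 and FZD2 and the co-receptors LRP5, LRP6 and RYK are lit in every column, whereas DKK1, DKK3 and WNT5B are lit mainly in osteosarcoma lines and DKK2 in Ewing lines.

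The first comparison asks which of these genes differ between the tumour types, with each line's 3 libraries summed into 1 sample (7 against 6). After a filter on low counts 35 of the 50 genes could be tested. In edgeR's quasi-likelihood test 14 of the 35 passed a Benjamini-Hochberg adjusted p (FDR) of 0.05, 6 higher and 8 lower in Ewing lines. The same rule called 14.4% of the 22000 genes tested, 5.96% higher and 8.4% lower. Higher in Ewing lines were FZD1, FZD3, FZD4, FZD9, DKK2 and LGR5; lower were WNT5B, WNT7B, FZD6, RYK, DKK1, DKK3, SFRP1 and TCF7. Line means did not overlap between the tumour types for 5 of the 35 (FZD4 and DKK2 higher, WNT5B, WNT7B and DKK3 lower), against 5.58% of all genes tested (3.19% with every Ewing line higher, 2.39% lower). DESeq2 called 18 of the 35 against 25.1% of its genes, and a fit of 39 libraries that takes libraries rather than lines as the unit called 31 of 34 against 80.2%. The 35 had a median log2 fold change of 0.07, and all genes tested had one of -0.06. A gene such as WNT7B that passed the filter through 1 tumour type alone had to differ, so these counts describe the 35 and carry no weight of their own. The 15 genes not tested were WNT1, WNT2, WNT3A, WNT4, WNT7A, WNT8A, WNT8B, WNT16, FZD10, DKK4, SFRP2, SFRP4, SFRP5, WIF1 and SOST. Fold changes are given on edgeR's scale, on which the median gene lies 0.11 lower (log2) than on the TPM scale.

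**Figure D2:**
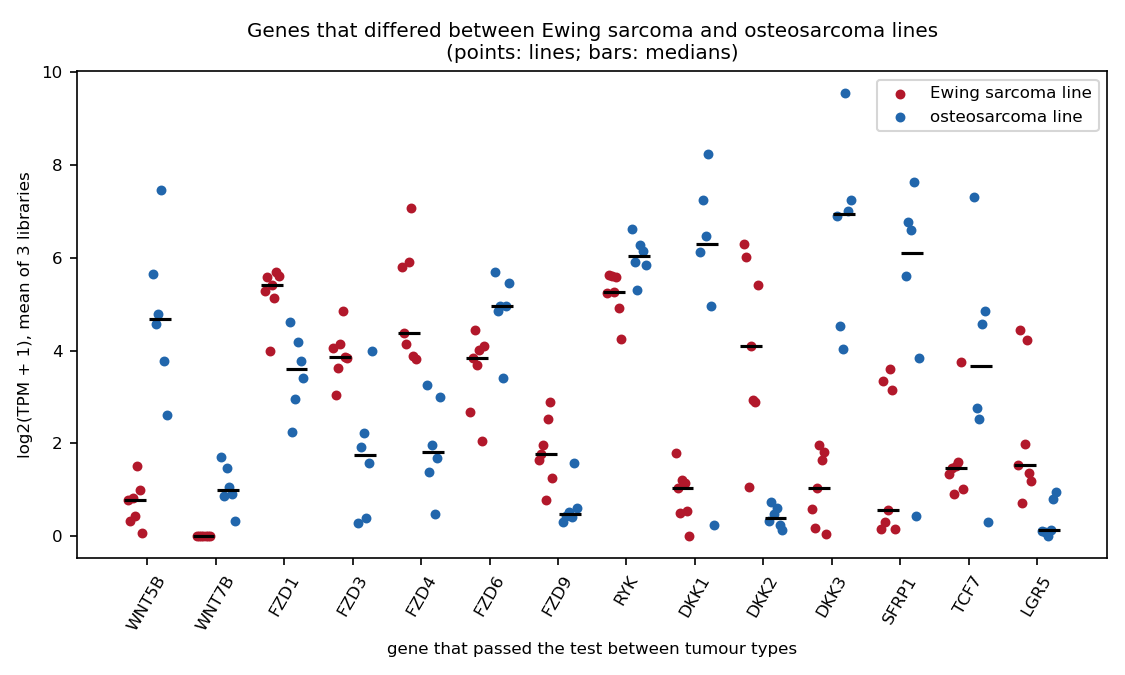
Line means as log2(TPM + 1) for the 14 genes that passed the test between tumour types (red points, 7 Ewing sarcoma lines; blue points, 6 osteosarcoma lines; black bars, medians). Red and blue points do not overlap for WNT5B, WNT7B, FZD4, DKK2 and DKK3; for DKK1 and TCF7 the U2OS point lies among the Ewing lines or below them.

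Among the ligands, none was called higher in Ewing lines and 2 of 11 tested were called lower, WNT5B and WNT7B, with a median log2 fold change of -0.77 over the 11. This is 18.18%, against 14.4% of all genes tested (5.96% higher, 8.4% lower), and with 2 genes nothing is read from the count. WNT5A, the main ligand of the branch that does not use beta-catenin, was the most abundant ligand by its median over lines, at 17.2 TPM. It ranged from 5.88 TPM in A673 over a median of 45.6 to 95 ± 7.21 TPM (SD, n = 3) in EW3 among Ewing lines, and from 8.20 in SAOS2 over 15.6 to 116 ± 8.71 TPM in G292 among osteosarcoma lines. The tumour types overlapped over nearly this whole range, and the log2 fold change was 0.16 ± 0.73 (SE, FDR 0.911). WNT5A led the summed ligand level in 6 of 7 Ewing lines, with 94.1% of it in EW3 and 28.2% in EW24; TC71 was led by WNT10B at 8.39 TPM. WNT3, a ligand of the beta-catenin branch, was next by its median and ran from 2.30 to 7.34 TPM (median 3.31) in Ewing lines and from 1.34 to 10.5 TPM (median 2.32) in osteosarcoma lines. Its log2 fold change was 0.07 ± 0.54 (FDR 0.95).

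WNT5B, the close paralog of WNT5A, separated the tumour types. It ranged from 0.046 in TC71 over a median of 0.732 to 1.87 TPM in RDES in Ewing lines, and from 5.11 in U2OS over 24.7 to 173 ± 11.7 TPM in MG63 in osteosarcoma lines. Every osteosarcoma line was above every Ewing line, and the log2 fold change was -6.29 ± 0.97 (FDR 0.0014), or -5.25 and still called without MG63. WNT5B led the ligands in 3 osteosarcoma lines, HOS-MNNG, KHOS and MG63. WNT7B, another ligand of the beta-catenin branch, had no count in any Ewing library. In osteosarcoma lines its level was low, from 0.265 in U2OS, where 1 of 3 libraries had any, over 0.987 to 2.29 ± 0.0784 TPM in G292. Relative to library totals it was at least 566-fold lower in Ewing lines, from a floor of 3 counts over the whole Ewing group. It passed the filter through osteosarcoma lines alone, so its call carries no weight of its own.

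Some ligands were high in single lines. WNT11, known from early development and heart, stood at 89.8 ± 17.1 TPM in SAOS2 and at 0.120 to 3.68 TPM in the other 5 osteosarcoma lines. WNT9A reached 36.9 ± 3.56 TPM in MG63 against 0.183 to 4.19 TPM in the rest of them, and WNT10B 23.8 ± 1.57 TPM in SAOS2. WNT3A, the ligand most used to switch on beta-catenin in culture, was present in U2OS alone, at 3.36 ± 0.255 TPM. WNT6 was highest in EW24 at 11 ± 3.75 TPM. The summed ligand level of osteosarcoma lines ran from 37 TPM in HOS-MNNG to 259 TPM in MG63, and that of Ewing lines from 13.8 in A673 to 101 TPM in EW3. U2OS, with a sum of 54.9 TPM, had 10 ligands at 1 TPM or more, whereas the osteosarcoma line HOS-MNNG and the Ewing lines A673 and EW3 had 3 each. WNT2B, WNT9A and WNT11, at log2 fold changes of -1.63, -3.67 and -3.59, did not pass in edgeR (FDR 0.112, 0.0628 and 0.101). DESeq2 called WNT2B (FDR 0.0363) and WNT9A (FDR 0.00247) lower, and edgeR called WNT9A lower without KHOS. WNT16, at most 0.674 TPM in any line, was not tested in the main fit. It was called lower without the filter on low counts, without HOS-MNNG, without U2OS and with the HOS derivatives summed. On 2661 of its 12561 exonic bases WNT2B overlaps ST7L on the other strand (GENCODE v29 exons), and the strand setting of the counting is not given in the sources used here, so its low level is uncertain.

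**Figure D3:**
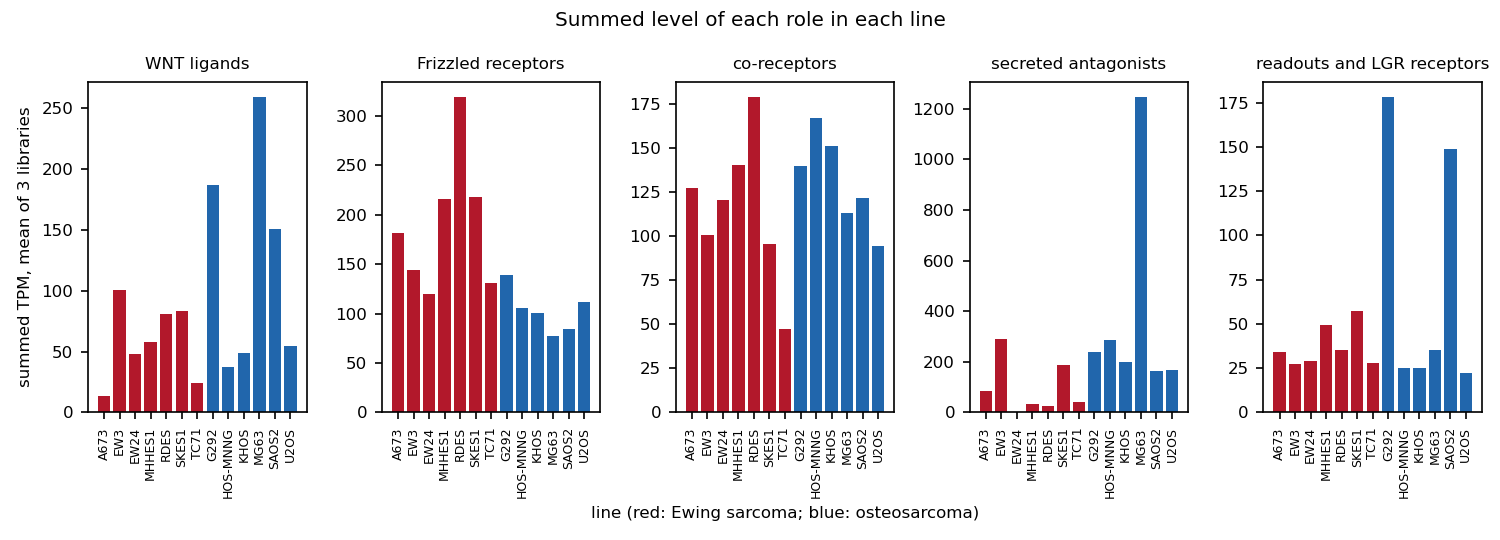
Summed TPM of the genes of each role in each line (bars, mean of 3 libraries; red, Ewing sarcoma; blue, osteosarcoma; each panel has its own axis from 0). Summed Frizzled levels are 119 to 319 TPM in Ewing and 77.6 to 138 TPM in osteosarcoma lines, and the antagonist panel is led by MG63 at 1245 TPM with EW24 lowest at 3.01 TPM.

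RefSeq promoters (250 bases before the start, GRCh38.p14) were matched for 35 of the 50 genes, of which 4 have more than 1 start. They are shown for 4 genes that were called between the tumour types, 1 ligand, 1 Frizzled, 1 antagonist and 1 readout, chosen after their values were seen; FZD1, FZD9 and RYK have entries too. The motifs searched, on both strands, were CTTTGAT and CTTTGAA, which TCF and LEF factors are known to bind, CCGGAAGT and CAGGAAGT, which ETS factors bind, and GGAAGGAA. The last is a tandem of GGAA, the unit of the repeats bound by the Ewing fusion protein. It shares GGAA with the ETS words. Capitals mark a match. A match to the first pair was present in 5.94% of all 35116 promoters, to the ETS pair in 5.89% and to GGAAGGAA in 3.06%. Among the 39 promoters of these genes 1 held a TCF/LEF word (DKK1), 1 an ETS word (TCF7) and none GGAAGGAA. Both starts of WNT5B, on the plus strand of chromosome 12 at chr12:1616806-1617055 and chr12:1628981-1629230, were free of these words.
WNT5B upstream start: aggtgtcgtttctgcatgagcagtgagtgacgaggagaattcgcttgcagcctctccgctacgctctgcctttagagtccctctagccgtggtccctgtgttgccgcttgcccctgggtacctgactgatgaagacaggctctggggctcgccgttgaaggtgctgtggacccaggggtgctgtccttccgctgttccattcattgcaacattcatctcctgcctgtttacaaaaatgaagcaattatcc
WNT5B downstream start: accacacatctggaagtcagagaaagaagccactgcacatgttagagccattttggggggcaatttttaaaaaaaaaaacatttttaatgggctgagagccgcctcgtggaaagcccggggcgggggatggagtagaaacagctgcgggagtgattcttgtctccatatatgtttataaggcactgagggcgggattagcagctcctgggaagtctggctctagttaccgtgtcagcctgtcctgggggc

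Frizzled receptors are the membrane proteins that bind the ligands. Of 10, 9 were tested, 4 were called higher in Ewing lines (FZD1, FZD3, FZD4, FZD9) and 1 lower (FZD6), against 5.96% and 8.4% of all genes tested. The 9 had a median log2 fold change of 1.60, and all genes tested had one of -0.06. FZD1 ranged from 14.9 in EW24 over 41.9 to 50.4 TPM in SKES1 in Ewing lines and from 3.74 in HOS-MNNG over 11.2 to 23.5 TPM in G292 in osteosarcoma lines. Of the Ewing lines only EW24 lay within the osteosarcoma range, and the log2 fold change was 1.60 ± 0.40 (FDR 0.018). FZD2, the next by its median (22.9 TPM), did not separate the types: Ewing lines ran from 5.87 in TC71 over 22.9 to 45.3 TPM in RDES, and osteosarcoma lines from 18.9 over 22.7 to 28.6 TPM. Its log2 fold change was -0.10 ± 0.31 (FDR 0.863).

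FZD4, which also serves as the receptor of the non-WNT ligand norrin, ranged from 13.1 in TC71 over 19.7 to 132 ± 11 TPM in RDES in Ewing lines and from 0.395 in MG63 over 2.56 to 8.54 TPM in G292 in osteosarcoma lines. All 7 Ewing lines were above all 6 osteosarcoma lines, with a log2 fold change of 3.41 ± 0.74 (FDR 0.00884). On the opposite strand PRSS23 covers 1399 of the 7383 exonic bases of FZD4 (18.9%, GENCODE v29). PRSS23 itself stood at 1.0 to 18.1 TPM in Ewing lines and up to 603 TPM in SAOS2, but 0.433 TPM in U2OS; how reads of the shared bases were split was not tested. The promoter of FZD4 lies on the minus strand of chromosome 11 at chr11:86955396-86955645 and held none of the words searched.
FZD4: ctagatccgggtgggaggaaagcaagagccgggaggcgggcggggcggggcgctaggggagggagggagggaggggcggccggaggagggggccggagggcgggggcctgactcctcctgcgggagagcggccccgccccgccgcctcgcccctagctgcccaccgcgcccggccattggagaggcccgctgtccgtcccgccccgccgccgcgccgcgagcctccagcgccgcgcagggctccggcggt

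FZD3, a receptor known from axon guidance and polarity, ran from 7.19 in EW3 over 13.6 to 27.7 TPM in RDES in Ewing lines and from 0.223 in G292 over 2.38 to 14.8 ± 1.85 TPM in U2OS in osteosarcoma lines. U2OS was inside the Ewing range and the other 5 osteosarcoma lines were below it (log2 fold change 2.26 ± 0.70, FDR 0.0464). FZD9 was low everywhere, from 0.716 in MHHES1 over 2.39 to 6.38 TPM in SKES1 in Ewing lines and from 0.232 over 0.401 to 1.99 TPM in SAOS2 in osteosarcoma lines. SAOS2 alone of the osteosarcoma lines reached the Ewing range, and the log2 fold change was 2.13 ± 0.61 (FDR 0.0342). FZD6, which is known to oppose beta-catenin signalling in some settings, was the Frizzled called lower: Ewing lines ran from 3.16 in SKES1 over 13.4 to 20.8 TPM in EW24, and osteosarcoma lines from 9.63 in MG63 over 30.02 to 50.3 TPM in G292. MG63 was the osteosarcoma line inside the Ewing range (log2 fold change -1.45 ± 0.44, FDR 0.041), and FZD6 led the Frizzled sum in 4 of 6 osteosarcoma lines. FZD8, at 11.1 to 97.2 TPM in Ewing lines and 0.505 to 16.6 TPM in osteosarcoma lines, had a log2 fold change of 2.24 ± 0.85 and did not pass in edgeR (FDR 0.0973), whereas DESeq2 called it higher (2.24, FDR 0.014).

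The calls of FZD3, FZD6 and FZD9 were close to the threshold, and all 3 were lost when the HOS derivatives HOS-MNNG and KHOS were summed into 1 sample (FDR 0.0799, 0.066 and 0.0649). FZD3 lost its call without any 1 of 10 lines (all but EW3, G292 and U2OS; FDR up to 0.0846) and with an effective length offset (FDR 0.122). FZD6 lost it without any 1 of 10 lines (all but EW24, TC71 and MG63; up to 0.0818) and without the filter on low counts (FDR 0.0505). Both also lost it without replicate 3 of every line. FZD9 lost it without any 1 of EW24, RDES, SKES1, G292, HOS-MNNG, KHOS, MG63 and U2OS (up to 0.0687). Directions were kept in these analyses, and the log2 fold change rose to 3.03 for FZD3 without U2OS and to 2.80 for FZD9 without SAOS2.

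**Figure D4:**
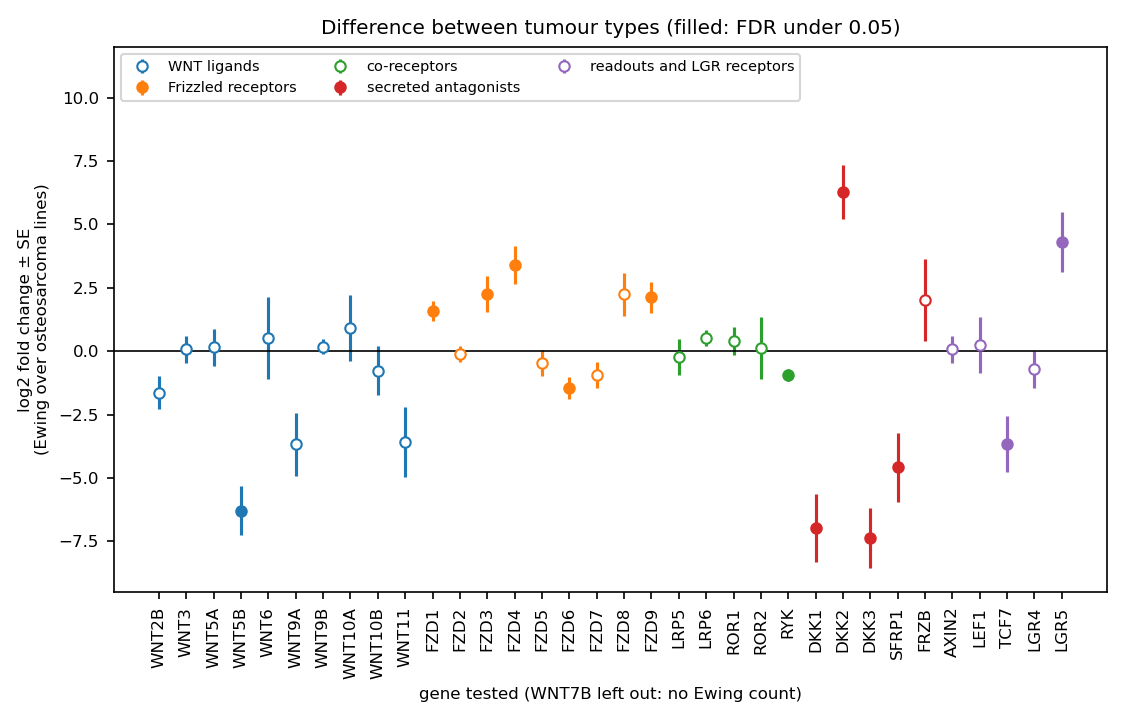
Log2 fold change of Ewing over osteosarcoma lines with its standard error for 34 of the 35 genes tested, coloured by role (filled, FDR under 0.05; WNT7B, without a count in Ewing lines, is left out). Filled points lie above 0 for FZD1, FZD3, FZD4, FZD9, DKK2 and LGR5; those furthest below 0 are DKK3, DKK1 and WNT5B.

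Of the 5 co-receptors, all tested, none was called higher and RYK was called lower, against 5.96% and 8.4% of all genes tested. RYK, a pseudokinase receptor of WNT5A, was the most abundant co-receptor by its median (47.4 TPM). It ran from 18 in TC71 over 37.5 to 48.4 TPM in EW3 in Ewing lines and from 38.4 in KHOS over 64.4 to 96.5 ± 3.45 TPM in G292 in osteosarcoma lines. KHOS was the one osteosarcoma line within the Ewing range, and the difference was small, -0.94 ± 0.23 on the log2 scale (FDR 0.0144). LRP5, a co-receptor for beta-catenin signalling, ran from 12.8 in TC71 over 37.9 to 83.7 TPM in RDES in Ewing lines and from 3.54 in SAOS2 over 18.7 to 97.7 TPM in KHOS in osteosarcoma lines, where both HOS derivatives were the highest. Its log2 fold change was -0.23 ± 0.70 (FDR 0.863). LRP6 and ROR1 ran from 6.29 to 37.9 and from 2.63 to 21.3 TPM over the 13 lines. ROR2, the receptor tyrosine kinase that binds WNT5A, stood at 25.8 ± 2.19 TPM in A673 and at 0.102 to 2.34 TPM in the other 6 Ewing lines; SAOS2 had 21.1 ± 3.72 TPM. Its log2 fold change was 0.12 ± 1.22 (FDR 0.962) in edgeR, and DESeq2 called it lower in Ewing lines at -2.12.

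The antagonists as a group differed widely between lines, with sums from 3.01 TPM in EW24 to 1245 TPM in MG63. Of 11, 5 passed the filter. DKK2 was called higher in Ewing lines and DKK1, DKK3 and SFRP1 lower, against 5.96% and 8.4% of all genes tested. FRZB was not called. DKK1, a blocker of LRP5 and LRP6 and a classical beta-catenin target, ranged from 0 in TC71 over 1.06 to 2.48 TPM in A673 in Ewing lines and from 0.191 in U2OS over 77.8 to 302 ± 22.5 TPM in MG63 in osteosarcoma lines. U2OS lay among the Ewing lines and the other 5 osteosarcoma lines were at 29.9 TPM or more, and the log2 fold change was -6.96 ± 1.34 (FDR 0.00481). In G292 its 3 libraries differed, at 19.5, 85.6 and 99.7 TPM. The DKK1 promoter, on the plus strand of chromosome 10 at chr10:52314031-52314280, held CTTTGAA once, beginning 95 bases before the start.
DKK1: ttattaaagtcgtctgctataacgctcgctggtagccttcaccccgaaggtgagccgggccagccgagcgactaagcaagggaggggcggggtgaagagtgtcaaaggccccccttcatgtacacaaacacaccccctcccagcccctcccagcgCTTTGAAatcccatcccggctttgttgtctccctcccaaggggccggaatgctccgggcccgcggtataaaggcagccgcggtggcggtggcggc

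DKK2, a relative of DKK1 that can block or weakly activate the pathway depending on its partners, showed the reverse order. It ran from 1.09 in EW24 over 16.2 to 77.1 ± 13.1 TPM in A673 in Ewing lines and from 0.105 in U2OS over 0.322 to 0.673 TPM in HOS-MNNG in osteosarcoma lines. Every Ewing line was above every osteosarcoma line, EW24 by the least, with a log2 fold change of 6.28 ± 1.06 (FDR 0.00226). DKK3, a divergent Dickkopf, ran from 0.0397 in TC71 over 1.04 to 2.90 TPM in MHHES1 in Ewing lines and from 15.5 in KHOS over 123 to 741 ± 13.1 TPM in MG63 in osteosarcoma lines. The types did not overlap (log2 fold change -7.37 ± 1.19, FDR 0.00173). DKK1, DKK2 and DKK3 kept their calls in each of the 22 alternative analyses, which include leaving out each line in turn, but without MG63 the log2 fold change was -6.11 for DKK3 and -6.34 for DKK1.

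SFRP1, which binds WNT proteins outside the cell, ran from 0.112 in TC71 over 0.478 to 11.1 TPM in RDES in Ewing lines and from 0.364 in SAOS2 over 72.0 to 196 TPM in MG63 in osteosarcoma lines. SAOS2 was the only osteosarcoma line within the Ewing range, and the log2 fold change was -4.58 ± 1.37 (FDR 0.0408); it lost its call without any 1 line other than SAOS2 and U2OS (FDR up to 0.0711). HOS-MNNG (108 TPM) and KHOS (96.4 TPM) were next below MG63, and with these HOS derivatives summed into 1 sample the call was lost (FDR 0.0624). SFRP2, a relative of SFRP1 that was not tested after the filter, stood at 171 ± 12 TPM in SKES1 and 167 ± 31 TPM in EW3, 10.4 TPM in MHHES1, 2.45 TPM in RDES and under 1 TPM in the other 3 Ewing lines. In osteosarcoma lines it reached 4.31 TPM in SAOS2 and at most 0.0597 TPM elsewhere; without the filter its log2 fold change was 6.08 (FDR 0.119). FRZB, a cartilage-associated Frizzled-related protein, was led by EW3 at 48.4 ± 8.19 TPM and did not pass (log2 fold change 2.02 ± 1.60, FDR 0.434). SFRP4 and WIF1 reached 2.84 and 3.09 TPM, both in MG63, and without the filter SFRP4 was called lower in Ewing lines (-6.34, FDR 0.0144). The leading antagonist differed between Ewing lines. DKK2 made 97.4% of the sum in TC71 and 90.5% in A673, SFRP2 90.7% in SKES1, and SFRP1 44.4% in RDES.

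The readouts gave no common direction. AXIN2, a feedback target that is induced by beta-catenin in most tissues, ran from 2.69 in EW3 over 5.20 to 10.7 TPM in SKES1 in Ewing lines and from 0.727 in KHOS over 5.08 to 9.77 TPM in SAOS2 in osteosarcoma lines. The ranges overlapped almost fully, and the log2 fold change was 0.08 ± 0.53 (FDR 0.941), with its sign changing among the alternatives. LEF1, a beta-catenin partner in the nucleus, ran from 0.456 in A673 over 8.03 to 19.9 TPM in SKES1 in Ewing lines and from 0.239 in MG63 over 5.50 to 12.1 TPM in SAOS2 in osteosarcoma lines (log2 fold change 0.25 ± 1.10, FDR 0.907). Both types held low lines. A673, EW3, RDES, G292 and MG63 were under 1 TPM and the other 8 lines at 3.10 TPM or more. TCF7, another such partner, ran from 0.875 in EW24 over 1.77 to 12.6 TPM in SKES1 in Ewing lines and from 0.238 in U2OS over 14.3 to 157 ± 9.11 TPM in G292 in osteosarcoma lines. SKES1 was above 2 osteosarcoma lines besides U2OS, HOS-MNNG at 5.77 and KHOS at 4.74 TPM. The log2 fold change was -3.65 ± 1.11 (FDR 0.0427); without G292 it was -2.07 and not called, without SKES1 it was -4.70, and the call was also lost without any 1 of A673, EW3, EW24, MHHES1, RDES, TC71, MG63 and SAOS2 (FDR up to 0.155).

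The upstream start of TCF7 lies on the plus strand of chromosome 5 at chr5:134115363-134115612 and held 1 ETS word, read on the minus strand, that begins 50 bases before the start; the downstream start held none. TCF7 has 28 transcripts in the tables, and its leading transcript held 38.7% ± 6.18 (SD, n = 3) of its level in G292.
TCF7 upstream start: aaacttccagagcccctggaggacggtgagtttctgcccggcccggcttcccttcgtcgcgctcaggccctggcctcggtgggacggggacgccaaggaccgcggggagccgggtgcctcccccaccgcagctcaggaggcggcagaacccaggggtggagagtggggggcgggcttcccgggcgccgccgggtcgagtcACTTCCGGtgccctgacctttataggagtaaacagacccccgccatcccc

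LGR4 and LGR5 bind R-spondins, which raise the number of Frizzled receptors at the surface, and LGR5 is itself a beta-catenin target in the gut. LGR4 was present in all lines, from 1.66 in EW3 over 12.6 to 32.1 TPM in MHHES1 in Ewing lines and from 7.05 in U2OS over 9.46 to 98.6 ± 1.10 TPM in SAOS2 in osteosarcoma lines (log2 fold change -0.72 ± 0.73, FDR 0.55). LGR5 ran from 0.633 in EW24 over 1.91 to 20.6 ± 1.31 TPM in EW3 in Ewing lines, with RDES at 17.8 TPM, and from 0.00424 in KHOS over 0.0951 to 0.937 TPM in U2OS in osteosarcoma lines. EW24 was inside the osteosarcoma range, and the log2 fold change was 4.31 ± 1.18 (FDR 0.0281). The call was lost without any 1 of EW3, RDES, G292, HOS-MNNG and MG63 (FDR up to 0.0534), and the fold change ran from 3.73 without EW3 to 4.93 without U2OS.

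Of 68 other genes of the pathway, 65 were tested, 4 were called higher and 11 lower in Ewing lines (23.08%, against 14.4% of all genes tested, 5.96% higher and 8.4% lower), with a median log2 fold change of -0.17. DESeq2 called 25 of the 65, 7 higher and 18 lower, against 25.1% of its genes; NOTUM and CCN4, named below, were not among them. Among genes of ligand export and removal, 2 of 5 were lower. They were NOTUM, the enzyme that strips the lipid from WNT proteins, at 0.0606 to 3.30 TPM in Ewing lines and with a median of 2.82 TPM in osteosarcoma lines but 2023 TPM in SAOS2 (log2 fold change -8.89 ± 2.35, FDR 0.0238), and TRABD2A, a protease that cleaves them (-5.66 ± 0.79, FDR 0.000766). Among R-spondins and their turnover enzymes 2 of 5 tested were lower, RSPO4 (-4.77, FDR 0.0455) and RNF43 (-4.90, FDR 0.0495), and without the filter on low counts neither was called. RNF43 had medians of 0.0516 TPM in Ewing and 0.0778 TPM in osteosarcoma lines, with 8.25 TPM in SAOS2. Other modulators gave 3 higher and 1 lower of 11: SOSTDC1 (4.98), APCDD1 (5.14) and DKKL1 (2.94) against CTHRC1 (-5.96). APCDD1, a membrane inhibitor, ran from 76.8 to 262 TPM in Ewing lines and from 0 to 11.2 TPM in osteosarcoma lines, so the types did not overlap. Of 16 intracellular genes CTNNB1, which encodes beta-catenin, and GSK3B, the kinase that marks it for destruction, were lower at -1.21 ± 0.30 (FDR 0.0166) and -0.58 ± 0.16 (FDR 0.0292). No nuclear gene of 10 was called by edgeR (6 at an unadjusted p under 0.05; DESeq2 called 5). The feedback targets TNFRSF19 (-5.95) and CCN4 were called lower of 6 tested, and CCN4 was at most 0.0155 TPM in Ewing lines and 112 TPM in SAOS2. Like WNT7B, CCN4 passed the filter through osteosarcoma lines alone. Its call carries no weight of its own, nor do the counts that include it. Planar polarity genes gave CELSR2 higher (2.23) and PRICKLE1 and PRICKLE2 lower (-3.39 and -6.30) of 12.

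In A673 cells the hairpin comparison asks whether the genes shift when doxycycline lowers KCNN1. None of the 29 genes that could be tested passed, with 1 at an unadjusted p under 0.05 (DKK3), and none passed in DESeq2. Across all 14252 genes 0 were called (0%) by edgeR, with 94 at an unadjusted p under 0.05, and 2 (0.0141%) by DESeq2. KCNN1 itself was thus not called by edgeR, although its mean fell from 30.4 to 10.6 TPM and its libraries did not overlap. The lack of calls therefore does not show that the genes stayed unchanged. A fit with the replicate number as a block called 73 genes (0.512%; 0.253% higher, 0.26% lower) and again none of the 29, of which 7 had an unadjusted p under 0.05. AXIN2 stood at 2.74, 1.72 and 8.0 TPM in uninduced and 1.41, 1.68 and 5.02 TPM in induced cells. The groups overlapped, and its log2 fold change was -0.54 ± 0.55 (FDR 1.0), or -0.52 ± 0.19 with the block (FDR 0.289).

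LEF1 stood at 0.468, 1.23 and 0.761 TPM in uninduced and 1.64, 1.76 and 1.56 TPM in induced cells, so that all 3 induced libraries were above all 3 uninduced ones. Its level was low and it did not pass, with a log2 fold change of 0.81 ± 0.54, or 0.90 ± 0.33 with the block (FDR 0.278). TCF7 stood at 1.93, 1.74 and 2.19 TPM in uninduced and 1.33, 2.0 and 2.28 TPM in induced cells, overlapping throughout, with a log2 fold change of -0.07 ± 0.33. Of the 24 genes at 1 TPM or more in either group, FZD3 and LEF1 were the 2 whose groups did not overlap, against 3.41% of the 13554 genes at that level (462), and with 2 genes nothing is read from this. FZD3 stood at 10.02, 9.50 and 10.3 TPM in uninduced and 6.77, 8.96 and 9.39 TPM in induced cells (log2 fold change -0.18 ± 0.19). Of the other pathway genes none was called without the block and TLE2, a corepressor of TCF factors, was called lower with it (-0.72 ± 0.13, FDR 0.04). This was 1.89% of the 53 tested, against 0.512% of all genes.

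Library 3 stood apart in both hairpin groups. Of the 24 genes, 7 were over 2-fold higher in replicate 3 than in the mean of replicates 1 and 2 in both groups, and none was over 2-fold lower in both. The 7 were FZD4, FZD6, RYK, DKK1, DKK2, AXIN2 and LGR5. The share of all genes with such a shift was not taken, so the count is not read as a trait of these genes. Over all genes tested, replicate 3 stood against replicates 1 and 2 of the other group (correlations of -0.782 to -0.665). FZD6 stood at 0.34, 0.92 and 4.8 TPM in uninduced and 0.35, 0.70 and 3.87 TPM in induced cells; DKK2 stood at 27.3, 22.4 and 80.3 TPM in the first and 21, 21.4 and 80.9 TPM in the second. For these 7 the difference between replicates of a group was larger than that between the group means. KCNN1 was also lowest in replicate 3 of both groups; its part in this was not tested. Without replicate 3 of both groups again none of the 50 genes was called (28 genes in all, 0.203%).

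**Figure D5:**
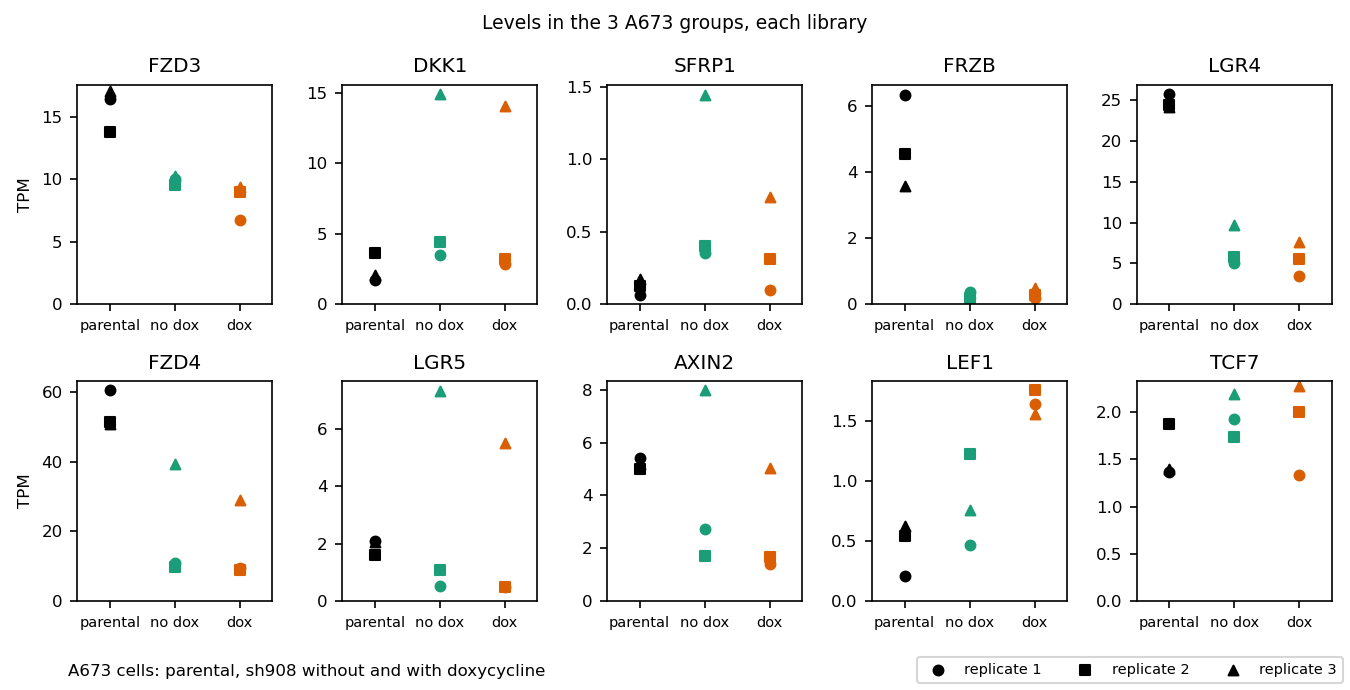
TPM of 10 of the genes in each library of parental A673 cells (black), sh908 cells without doxycycline (green) and sh908 cells with doxycycline (orange), with 1 symbol per replicate number and an own axis from 0 for each gene. Replicate 3 (triangles) lies above the other hairpin libraries for DKK1, FZD4, LGR5 and AXIN2, and LGR4 and FRZB are lower in all hairpin libraries than in parental cells.

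Uninduced sh908 cells were then set against parental A673 cells, a comparison that shares the uninduced libraries with the one above. Of 30 genes tested 5 were called, against 15.1% of all 15778 genes (8.71% higher, 6.42% lower). DESeq2 called 11 of the 30, against 26.6% of its genes. DKK1 and SFRP1 were higher in uninduced sh908 cells, and FZD3, FRZB and LGR4 were lower. LGR4 stood at 25.7, 24.4 and 24.2 TPM in parental and 5.03, 5.77 and 9.68 TPM in uninduced cells. FRZB stood at 6.34, 4.54 and 3.58 TPM in parental and 0.367, 0.208 and 0.359 TPM in uninduced cells. Neither gene overlapped between the groups; the log2 fold changes were -1.45 ± 0.14 (FDR 0.00613) and -3.49 ± 0.39 (FDR 0.00706), and both calls held with a replicate block (FDR 0.0383 and 0.0362; 319 genes called, 2.02%, with 1.38% higher and 0.64% lower).

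FZD3 stood at 16.4, 13.8 and 17.1 TPM in parental and 10.02, 9.50 and 10.3 TPM in uninduced cells, without overlap, at a log2 fold change of -0.57 ± 0.14 (FDR 0.0368). DKK1 stood at 1.72, 3.63 and 2.10 TPM in parental and 3.49, 4.43 and 14.9 TPM in uninduced cells. Its groups overlapped, and the log2 fold change was 1.92 ± 0.51 (FDR 0.0488). SFRP1 was low throughout, at 0.0685, 0.125 and 0.175 TPM in parental and 0.353, 0.401 and 1.45 TPM in uninduced cells (2.88 ± 0.59, FDR 0.0261). With the block these calls were lost (FDR 0.105, 0.0817 and 0.0544), and with an effective length offset FZD3 moved to -0.20 (FDR 0.495) and DKK1 lost its call (FDR 0.0533). FZD3 also lost its call without the filter on low counts (FDR 0.0792). DKK1 kept its call but moved to 1.36 without uninduced replicate 3, and to 1.24 without replicate 3 of both groups; without replicate 2 of both groups it was 2.51 and not called. AXIN2 (-0.04 ± 0.39, FDR 0.952), LEF1 (2.05 ± 0.61, FDR 0.0678) and TCF7 (0.76 ± 0.29, FDR 0.12) did not pass. DESeq2 called LEF1 higher (FDR 0.0205). Without uninduced replicate 3, LEF1 (2.36, FDR 0.000781) and TCF7 (0.89, FDR 0.00568) were called higher and AXIN2 lower (-0.58, FDR 0.015), and all 3 were called in these directions without replicate 3 of both groups. ROR2, whose level set A673 apart from the other Ewing lines, stood at 22.9 ± 3.68 TPM in uninduced and 21.8 ± 8.23 TPM in induced cells. Of 54 other pathway genes tested 3 were higher (DKKL1, PYGO2, TLE2) and 3 lower (ZNRF3, GPC4, AXIN1), or 11.11% against 15.1% of all genes. The block kept ZNRF3, a ligase that removes Frizzled receptors, at -1.17 ± 0.18 (FDR 0.046). This was 1.85% of the 54, against 2.02% of all genes.

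These fold changes are relative to the median gene. On the TPM scale the median gene was 0.41 lower (log2) in uninduced than in parental cells, whereas on edgeR's scale it was 0.01 higher, and the directions of the 5 genes called were the same on both. The count of genes called rested on single libraries. Without uninduced replicate 3, which stood apart, 22 of 31 genes tested were called, 9 higher and 13 lower, against 62.3% of all genes. Without replicate 3 of both groups the count was 21 of 31, against 57.5%. Those higher without uninduced replicate 3 were WNT5B, WNT10A, FZD8, LRP5, ROR2, DKK1, SFRP1, LEF1 and TCF7; those lower included FZD1, FZD3, FZD4, FZD6, FZD7, WNT3, WNT5A, LRP6, DKK2 and AXIN2 beside FRZB and LGR4. Without any 1 parental replicate (1, 2 or 3) none was called, against 0.0125 to 0.0504% of all genes. Without uninduced replicate 1 there were 3 (8.25% of all genes) and without uninduced replicate 2 there were 2 (1.6%).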

How the data were processed

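RNA was extracted with NucleoSpin RNA Plus and made into Illumina TruSeq Stranded mRNA libraries, per the labels' protocols. The submitters' processing notes name fastp 0.19.5, kallisto 0.46.2, hg38 and GRCh38.p14; no option or strand setting is recorded there. The authors deposited 1 table per library, with an estimated count, a TPM and an effective length for each of 177816 transcripts, per the file headers. RefSeq names were found for 169966 transcripts (95.6%); the other 7850 held 0.92 to 1.6% of a library's counts and were left out. Counts and TPM were summed per gene, and estimated counts were rounded. edgeR 4.0.16 (R 4.3.3) was used with TMM scaling, filterByExpr and the robust quasi-likelihood test, with Benjamini-Hochberg adjustment over all genes tested and a threshold of 0.05, after a check on simulated data. Lines were compared as sums of their 3 libraries, and each pair of A673 groups was fitted on its own 6 libraries. Levels are means of TPM ± SD over 3 libraries. Alternatives were DESeq2 1.42.0, RLE size factors, no filter, an effective length offset, lines or libraries left out, the HOS derivatives summed, and the replicate block. In the doxycycline comparison same-numbered libraries deviated together, with correlations of 0.689, 0.589 and 0.881, and the block was therefore read beside the main fit. Replicates 1 and 2 also correlated across numbers, slightly less (0.613 and 0.526), although induced replicate 2 was closer to uninduced replicate 1 than to uninduced replicate 2. Replicate 3 stood against both (-0.782 to -0.665). Genes named with full statistics are those called in a comparison, AXIN2, LEF1 and TCF7, and the 2 genes of each role with the highest median TPM; further genes were named after their values were seen. The 50 genes and the lists of other pathway genes and markers were chosen with earlier results of these data known. Depth limits genes with few counts, and a count of 0 was given a floor of 3 counts, which covers counting error only.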

Additional observations from a re-analysis of the deposited data

Results flagged for a closer look

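Each of these line means lay far from the rest of its tumour type, by the gap to the nearest line relative to the whole range on the log2(TPM + 1) scale. Chance flags about 1 in 20 groups, and 12 of 72 groups of lines were flagged. SAOS2 stood out among the osteosarcoma lines for 5 genes. It had WNT11 at 89.8 TPM (0.120 to 3.68 in the others), LGR4 at 98.6 TPM (7.05 to 14.4), SFRP2 at 4.31 TPM (0 to 0.0597), FZD9 at 1.99 TPM (0.232 to 0.532) and WNT1 at 1.49 TPM (0 to 0.0488). U2OS stood out for WNT10A, at 5.27 TPM (0 to 0.350), and WNT3A, at 3.36 TPM (0 to 0.0933), and MG63 for a low FZD6, at 9.63 TPM (27.9 to 50.3). Among Ewing lines A673 had ROR2 at 25.8 TPM (0.102 to 2.34), SKES1 had TCF7 at 12.6 TPM (0.875 to 2.01), EW3 had WIF1 at 1.27 TPM (0 to 0.0673) and EW24 had a low FZD1, at 14.9 TPM (34.1 to 50.4).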

How the results depend on the processing

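Between tumour types WNT5B, FZD1, FZD4, RYK, DKK1, DKK2 and DKK3 kept their calls in all 22 alternatives. WNT7B was called in the 21 that tested it, which carries no weight, since it had no count in Ewing lines. Leaving out a line gave 8 to 13 of the 35 to 38 genes tested, against 10.6 to 14.1% of all genes (8 without RDES, 9 without G292, 9 without MG63). Leaving out a replicate gave 12 to 14 of 34 or 35 against 13.9 to 14.2%, and summing the HOS derivatives 11 of 38 against 12.4%. The fit of 39 libraries with the replicate block gave 31 of 34 against 80.2%. Over all genes the leave-outs gave 2296 to 3177, that replicate block fit 14481 and DESeq2 5399. AXIN2 was called higher in the replicate block fit of 39 libraries (0.35, FDR 0.0021) and in no other alternative; it ran from -0.17 without SKES1 to 0.38 without G292; it was -0.10 without HOS-MNNG, -0.14 without KHOS, -0.023 without replicate 3 and -0.12 with the HOS derivatives summed. LEF1 ran from -0.25 without SKES1 to 0.75 without KHOS. With doxycycline none of the 50 genes was called in 17 alternatives. Over all genes the replicate block gave 73 and DESeq2 2; leaving out libraries gave 0 to 167, with 28 without replicate 3 of both groups and 10, 7 and 167 with the replicate block and without replicates 1, 2 and 3 of both. TCF7 there was 0.013 without uninduced replicate 1, 0.033 without induced replicate 1, 0.12 without replicate 1 of both groups (0.11 with the replicate block) and -0.25 at its lowest; AXIN2 ran from -1.06 without induced replicate 3 to 0.0297 without uninduced replicate 3. Between uninduced and parental cells same-numbered libraries deviated together only weakly (0.038, 0.092 and 0.240) and are not taken as paired. The replicate block gave 319 genes (2.02%) and 2 of 30 tested, DESeq2 4169 (26.6%) and 11 of 30, and the effective length offset 2188 (13.9%) and 3 of 30. Leaving out libraries gave 0 to 10202 genes (0 to 62.3%) and 0 to 22 of 30 or 31 tested, with 8986 genes (57.5%) and 21 of 31 without replicate 3 of both groups. With the replicate block and without replicates 1, 2 and 3 of both groups the counts were 205, 345 and 8250 genes (1.26, 2.14 and 52.8%). In these fits 1 of 30, 3 of 30 and 21 of 31 of the listed genes tested were called. AXIN2 ran from -0.58 without uninduced replicate 3, or -0.62 at its lowest, to 0.27 without uninduced replicate 2; it was 0.077 without uninduced replicate 1, 0.088 and 0.27 without replicates 1 and 2 of both groups, and 0.20 with the replicate block and without replicate 2. Leaving out the same replicate of both groups was added after seeing the data. The causes were not tested. At 0.5 and 2 TPM 43 and 38 of the 50 genes were present in a line.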
